A study of Mus musculus with 2 samples.

Results

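The genes described here build caveolae, together with Plvap, which closes the openings of caveolae and fenestrae. They were chosen by function rather than by their values, though earlier results of these data were known. They are Cav1, Cav2, Ptrf, Sdpr, Prkcdbp, Ehd2, Ehd4 and Plvap, 8 of the 24071 genes counted in either library. All 8 were detected, and 7 of them reached 10 CPM (UMIs summed over a cell class and scaled to the same total in each class) in at least 1 cell class, Plvap being the exception.

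Caveolae are small flask-shaped pits of the plasma membrane, and endothelial cells, smooth muscle cells and adipocytes of many organs carry large numbers of them. Caveolin 1 (Cav1) inserts into the inner membrane leaflet and is required for the pits to form, caveolin 2 (Cav2) joins it in hetero-oligomers, and the cavins coat the curved membrane from the cytoplasm: cavin 1 (listed as Ptrf), cavin 2 (Sdpr) and cavin 3 (Prkcdbp). The ATPase Ehd2 sits at the neck of the pit and holds it at the membrane, its relative Ehd4 acts mainly in endosomal recycling, and the Plvap protein forms the stomatal diaphragms of caveolae and the diaphragms of fenestrae. Endothelium of the brain and spinal cord keeps vesicular transport low, and Plvap is a classical marker of endothelium without a mature barrier.

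The data were 2 single-cell RNA libraries of spinal cord cells from C57BL/6j mice aged 10 to 12 weeks, genotype Clec9a cre/cre R26 LSLtdTomato/LSLtdTomato in both groups. In these animals, cells with a history of Clec9a (DNGR-1) expression, and the progeny of such cells, carry the red reporter tdTomato. Live CD45- CD133+ cells were sorted into a tdTomato+ fraction (CD133+ DNGR-1 traced, 4825 cells, 46530507 counted molecules, or UMIs, in all, median 8566 per cell) and a tdTomato- fraction (CD133+ non-traced, 25411 cells, 233318692 UMIs, median 7218). Each group was 1 library, the number of animals behind it is not given in the sources used here, and no p-value is given: all differences describe these libraries, and all intervals (95%, exact) cover counting error only.

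Cell classes were rebuilt from marker genes with the 8 genes kept out of the clustering. The non-traced library held 2428 arterial-like, 5077 capillary-like and 3599 venous-like cells, a further 9659 endothelial-like cells without a segment name, 250 mural-like and 1181 ependymal-like cells. The traced library held 4761 ependymal-like and 64 endothelial-like cells. All 10 endothelial markers were found in at least 50% of the cells in each of the 3 segments, 12 of 14 mural markers in the mural-like cells and 10 of 10 ependymal markers in the ependymal-like cells of both libraries. The venous-like class rested on 6 of 11 venous markers and was led by Vcam1, Icam1 and Ptgs2, genes that inflammation also induces. It also had all 10 capillary markers in at least 50% of its cells, at a summed 7182 CPM against 10654 in capillary-like cells. One of the 2 capillary-like clusters carried Hspa1a and Hspa1b. Many droplets of the non-traced library held markers of more than 1 class. Cells of ependymal and mural clusters with at least 0.5% of their UMIs from the endothelial markers, a limit set after the data had been seen, were therefore kept apart: 719 of 1900 and 2258 of 2508 cells. The libraries shared 42 cell barcodes, 1 of them with the same class in both.

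Cav2 and Cav1 are neighbors on mouse chromosome 6 of GRCm38. Cav2 (ENSMUSG00000000058.6) runs from 17281185 to 17289115 and Cav1 (ENSMUSG00000007655.16) from 17306335 to 17341452, both on the plus strand, with 17219 bases between them. Sdpr (ENSMUSG00000045954.7) lies on chromosome 1, plus strand, from 51289126 to 51302960. The minus strand carries Ptrf on chromosome 11 (100956733 to 100970887), Prkcdbp (105480083 to 105482300) and Ehd2 (15946958 to 15967567) on chromosome 7, Ehd4 on chromosome 2 (120089175 to 120154606) and Plvap on chromosome 8 (71497765 to 71511752). The 250 bases before the start of Cav1, Cav2 and Sdpr (RefSeq, GRCm38.p6, plus strand, 5′ to 3′) are shown. Cav1 and Cav2 were chosen because they are neighbors that both stood lower in mural-like and ependymal-like than in endothelial-like cells. Sdpr was chosen because it differed most between the Ucma-high and the other ependymal-like cells described below. Capitals mark matches on either strand to the GC box (GGGCGG), the TATA box (TATAAA), a part of the X-box of RFX factors (GTTGCC) or AGGAAG. The last is an extended form of the ETS core GGAA, and the shorter core was not marked. These occurred in 32.7%, 12.4%, 10.4% and 29.5% of 32851 promoters, read over the 250 bases before the start.
Cav1, chr6:17306085-17306334: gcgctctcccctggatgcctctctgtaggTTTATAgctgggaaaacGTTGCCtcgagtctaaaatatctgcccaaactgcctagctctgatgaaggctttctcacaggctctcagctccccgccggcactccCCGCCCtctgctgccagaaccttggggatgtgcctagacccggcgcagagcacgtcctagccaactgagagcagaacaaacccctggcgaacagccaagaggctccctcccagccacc
Cav2, chr6:17280935-17281184: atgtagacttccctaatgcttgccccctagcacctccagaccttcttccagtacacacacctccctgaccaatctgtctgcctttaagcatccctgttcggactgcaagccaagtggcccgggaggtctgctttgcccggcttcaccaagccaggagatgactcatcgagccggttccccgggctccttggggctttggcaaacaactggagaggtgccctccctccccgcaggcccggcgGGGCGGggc
Sdpr, chr1:51288876-51289125: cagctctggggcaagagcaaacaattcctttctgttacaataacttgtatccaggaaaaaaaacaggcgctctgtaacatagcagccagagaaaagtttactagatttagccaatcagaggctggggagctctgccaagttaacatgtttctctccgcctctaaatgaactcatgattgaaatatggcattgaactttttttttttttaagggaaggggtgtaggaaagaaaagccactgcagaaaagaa
RefSeq lists a second Cav1 promoter, with 12 CpG and no match to the 4 motifs, which is not printed because its start is not that of the gene given above. The Cav1 sequence shown held 1 match each to the GC box, the TATA box and the X-box part, and that of Cav2 held 1 match to the GC box. Both had 10 CpG dinucleotides, with a GC content of 59.6% and 62.0%. None of the 4 motifs occurred in the Sdpr sequence, which had 2 CpG and a GC content of 40.4%. Promoters were matched for 6 of the 8 genes, not for Prkcdbp and Plvap, and a motif match is a description and not a binding site.

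The first question was where along the vessel wall and the central canal each gene was found. Cav1 was high in endothelial-like cells of all 3 segments and close to absent from the traced ependymal-like cells. Its level was 468 CPM (461 to 474) in venous-like, 432 (423 to 440) in arterial-like and 431 (424 to 438) in capillary-like cells, the last pair being indistinguishable by counting error. It was 122 CPM (104 to 142) in mural-like cells, 13.5 (11.2 to 16.2) in non-traced and 0.196 (0.0898 to 0.373, 9 UMIs) in traced ependymal-like cells. With every cell thinned to 1000 UMIs, 32.8% of capillary-like, 1.10% of non-traced ependymal-like and 0.0210% of traced ependymal-like cells had a Cav1 UMI (median depths before thinning 6021, 7100 and 8564 UMIs). Cldn5, a tight junction gene that ependymal cells should lack, gave 99.9%, 10.5% and 0.0210% in the same cells.

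Cav2 had the same order of classes at its lower end, but did not come near 0 in ependymal-like cells. It was 486 CPM (478 to 493) in capillary-like and 479 (472 to 486) in venous-like cells, whose intervals overlapped, and 411 (403 to 420) in arterial-like cells. Mural-like cells had 131 CPM (112 to 152), non-traced ependymal-like cells 51.9 (47.3 to 56.9) and traced ependymal-like cells 39.7 (37.9 to 41.5).

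The 3 cavins differed from one another in their distribution. Ptrf, the cavin needed for caveolae in all tissues, was highest in mural-like cells at 766 CPM (720 to 814). It was 375 CPM (367 to 383) in arterial-like and 365 (358 to 371) in venous-like cells, whose intervals overlapped, 324 (318 to 330) in capillary-like, 134 (127 to 142) in non-traced and 101 (97.8 to 104) in traced ependymal-like cells. Sdpr was highest in the endothelial segments: 646 CPM (635 to 656) in arterial-like, 506 (499 to 514) in venous-like and 477 (470 to 485) in capillary-like cells, against 64.3 (59.2 to 69.8) in non-traced ependymal-like, 27.2 (37 UMIs) in mural-like and 24.0 (22.6 to 25.4) in traced ependymal-like cells. Prkcdbp was the member with the least difference between endothelium and ependyma. Its level was 458 CPM (423 to 495) in mural-like, 357 (349 to 365) in arterial-like, 196 (192 to 201) in venous-like, 162 (154 to 171) in non-traced ependymal-like, 157 (153 to 162) in capillary-like and 123 (120 to 127) in traced ependymal-like cells, the ependymal and capillary values of the non-traced library overlapping.

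The EHD proteins had their upper ranks in arterial-like and mural-like cells. Ehd2 reached 269 CPM (242 to 298) in mural-like and 245 (238 to 251) in arterial-like cells, with overlapping intervals, 116 (113 to 120) in venous-like and 99.8 (96.6 to 103) in capillary-like cells. It was 12.5 CPM (10.3 to 15.1) in non-traced and 9.88 (8.99 to 10.8) in traced ependymal-like cells, again overlapping. Ehd4 was 142 CPM (137 to 147) in arterial-like, 108 (91.3 to 127) in mural-like, 74.3 (71.4 to 77.2) in capillary-like and 71.9 (69.2 to 74.6) in venous-like cells, the last pair overlapping, and 5.25 and 2.60 in non-traced and traced ependymal-like cells.

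**Figure D1:**
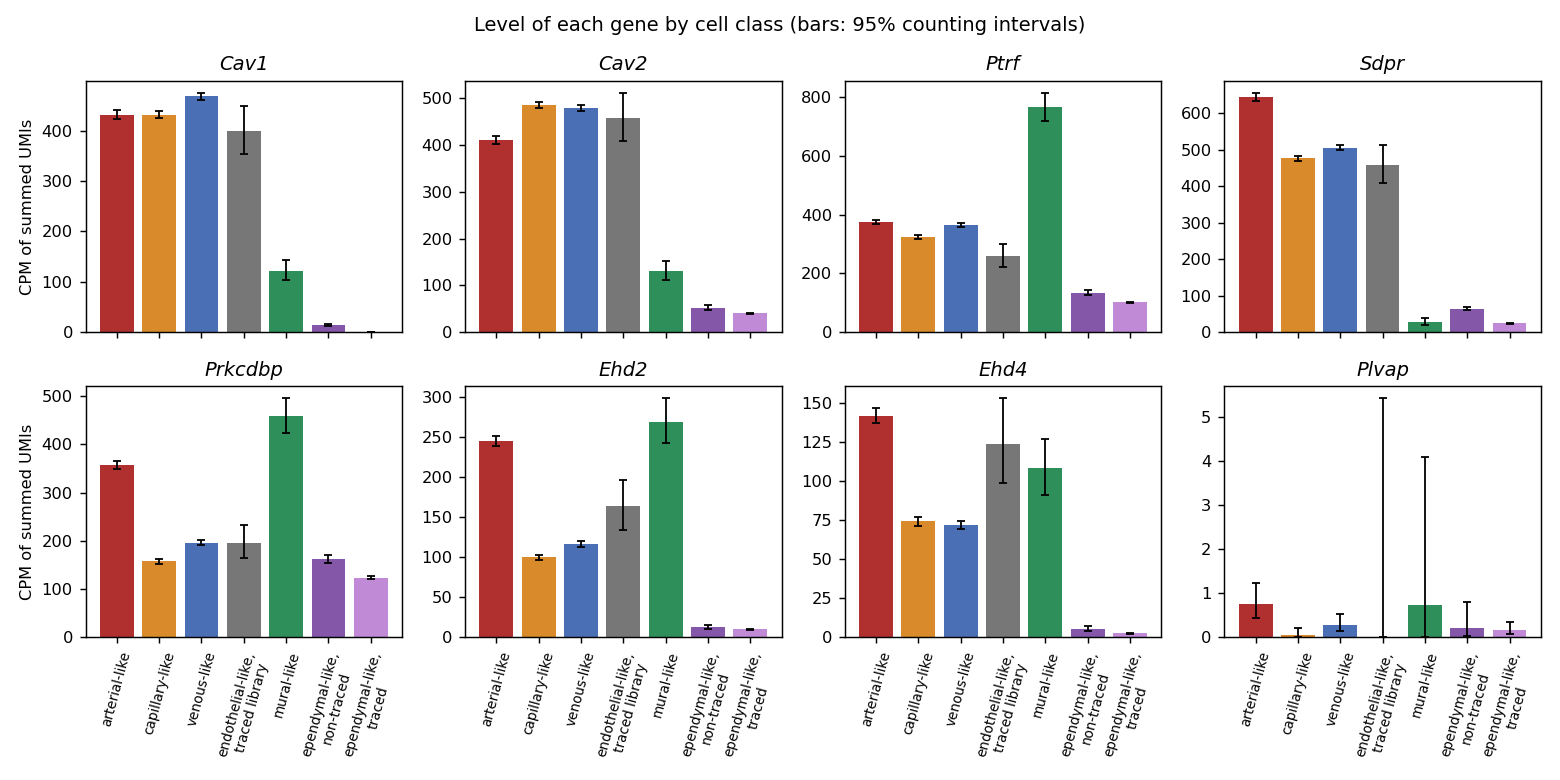
Level of each of the 8 genes (bars, CPM of summed UMIs, each panel with its own linear axis from 0) in 7 cell classes of both libraries, with exact Poisson intervals that cover counting error only. Cav1, Cav2 and Sdpr stand highest in the endothelial segments, Ptrf and Prkcdbp in mural-like cells, and the Plvap bars stay below 1 CPM, with wide intervals in the 2 smallest classes.

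At least 1 of the 8 genes was found, at 1000 UMIs per cell, in 91.1% of arterial-like, 85.4% of capillary-like, 86.7% of venous-like and 67.2% of mural-like cells, against 34.7% of non-traced and 26.2% of traced ependymal-like cells. Before thinning, the median was 6 of the 8 genes per arterial-like or venous-like cell, 5 per capillary-like cell, 3 per mural-like and 2 per ependymal-like cell. The 64 endothelial-like cells of the traced library had 399 CPM of Cav1, 458 of Cav2, 459 of Sdpr, 258 of Ptrf, 196 of Prkcdbp, 163 of Ehd2 and 124 of Ehd4, and no Plvap UMI, which allows up to 4.41 CPM (3 counts).

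Plvap was nearly undetected. The non-traced library held 58 Plvap UMIs in 53 of 25411 cells (0.249 CPM) and the traced library 8 UMIs in 8 of 4825 cells (0.172 CPM). Arterial-like cells had 17 UMIs (0.767 CPM, 0.447 to 1.23), venous-like cells 11 (0.291 CPM, 0.145 to 0.521) and capillary-like cells 2 (0.0571 CPM, 0.00691 to 0.206). The arterial to capillary ratio was 13.4 with a counting interval of 3.19 to 120, at levels below 1 CPM on both sides. Mural-like cells had 1 UMI, and ependymal-like cells 2 in the non-traced and 8 in the traced library (0.223 and 0.175 CPM). Since a similarly low level occurred in ependymal-like cells, the capillary and venous counts cannot be told apart from it at this depth. Of the 8 traced UMIs, 4 fell in 106 dividing cells, a group chosen after its values were seen and described last. The part of background in these counts was not tested. Of the 17 arterial-like UMIs, 12 fell in the cluster led by Mgp, Fbln5 and Clu (742 cells, 1.61 CPM) and 5 in the cluster led by Gkn3, Igfbp3 and Vegfc (1686 cells, 0.341 CPM). At a finer clustering the highest level was 6.26 CPM (1.71 to 16.0), 4 UMIs in 61 cells led by Apln, Kit and Angpt2, which also had the lowest Sdpr of the finer endothelial clusters, 329 CPM (286 to 376). How many of the 61 cells held a Plvap UMI is not reported here, and the most in 1 cell of the library was 4. Endothelial cells led by Lrg1 and Ackr1, a venular gene (554 cells), had 6 Plvap UMIs (1.02 CPM) and the highest Cav1 of the finer clusters, 514 CPM (496 to 533).

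The second question was whether the coat genes differed between segments. Differences were taken on log2(CPM + 1) against capillary-like cells and counted from 2-fold, for genes of at least 10 CPM in either class. Between arterial-like and capillary-like cells, 2 of 7 caveolar genes were at least 2-fold higher, beside 4.29% of 8486 genes tested, and 0 were lower, beside 2.07%. Ehd2 was 2.45-fold (2.35 to 2.56) and Prkcdbp 2.27-fold (2.19 to 2.35) higher. Just short of the limit, Ehd4 was 1.91-fold higher (1.82 to 2.02). Sdpr was 1.35-fold and Ptrf 1.16-fold higher, while Cav1 had a ratio of 1.001 (0.975 to 1.03) and Cav2 of 0.847 (0.825 to 0.869). The median over the 7 genes was 0.44 on the log2 scale, against 0.05 over all genes tested. The 2-fold count changed with the clustering. With the 8 genes among the clustering features, or at a lower or higher clustering resolution, arterial-like cells numbered 3970 to 4600, Prkcdbp was 0.71 to 0.83 and Ehd2 0.90 to 0.92 higher on the log2 scale, and the count was 0. With both libraries integrated, which gave 4860 arterial-like cells, Prkcdbp was 1.005 and Ehd2 1.035 higher and the count stayed at 2. Summed erythroid markers were 298 CPM in arterial-like and 23.6 in capillary-like cells, summed mural markers 370 and 446 CPM. Their part in the result was not tested.

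Between venous-like and capillary-like cells, 0 of 7 genes were at least 2-fold higher (1.26% of 8305 genes tested) and 0 lower (0.446%). Both classes had all 10 capillary markers in at least 50% of their cells, so this compares classes that were alike in the detection of those markers. Their summed level differed, at 7182 CPM in venous-like and 10654 in capillary-like cells. The widest difference was that of Prkcdbp, 1.25-fold higher (1.21 to 1.29). Cav2 and Ehd4 had ratios of 0.987 (0.966 to 1.01) and 0.968 (0.917 to 1.02), and the other genes lay between 1.06 and 1.16.

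Across all 10 endothelial-like clusters the 7 genes fell into a flat and a graded group. The ratio of the highest to the lowest cluster was 1.25 for Cav1, 1.23 for Cav2, 1.43 for Sdpr and 1.46 for Ptrf. Over the 19 finer clusters it was 1.29, 1.28, 2.12 and 1.57, so Sdpr was not flat there, with its lowest level in 61 cells. Over the 10 clusters the ratio was 2.91 for Prkcdbp, 2.98 for Ehd4 and 3.32 for Ehd2. All 3 graded genes were highest in the arterial-like cluster led by Mgp, Fbln5 and Clu: 398 CPM of Prkcdbp, 178 of Ehd4 and 311 of Ehd2. The lowest levels were 137 CPM of Prkcdbp, in the cluster led by the immediate early genes Egr1 and Nr4a1, and 59.7 of Ehd4 and 93.6 of Ehd2, in the capillary-like cluster led by Cpe, Gpr85 and Fmo2. A cluster without a segment name, led by Nov and S100a6 (1601 cells), had 285 CPM of Prkcdbp and 230 of Ehd2, the latter above the 211 CPM of the arterial-like cluster led by Gkn3.

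**Figure D2:**
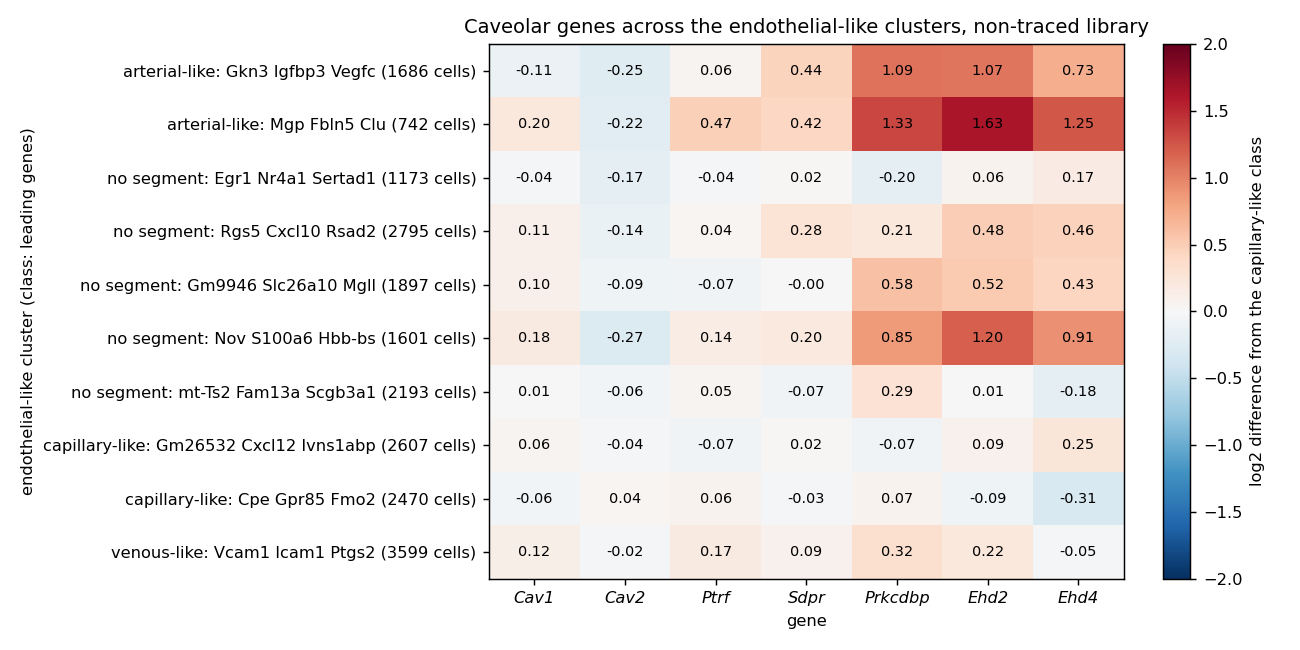
Color grid of the log2 difference of each of 7 caveolar genes (columns) from its capillary-like level, on log2(CPM + 1), in each of the 10 endothelial-like clusters of the non-traced library (rows, with leading genes and cell numbers). The caveolin columns are nearly white, whereas Prkcdbp, Ehd2 and Ehd4 are reddest in the arterial-like cluster led by Mgp and Fbln5.

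Other genes of caveolae and of a second uptake route were read from fixed lists. Of 15 further genes of caveolae and membrane scission, 14 were in the files and 8 reached 10 CPM in arterial-like or capillary-like cells. Of these, 2 were higher in arterial-like cells: Ehd1, an endosomal recycling ATPase (76.1 against 30.0 CPM), and flotillin 2, Flot2 (14.4 against 6.42 CPM). None passed 2-fold in venous-like cells. The 11 clathrin coat genes, which serve receptor-mediated uptake, had a median log2 difference of 0.00 in arterial-like and 0.01 in venous-like cells and none passed 2-fold in either. Nos3, the endothelial nitric oxide synthase that caveolin 1 binds, was 205, 172 and 192 CPM in arterial-like, capillary-like and venous-like cells. Mfsd2a, the lipid transporter that restrains caveolar transcytosis at the blood-brain barrier, was 187 CPM in arterial-like, 382 in capillary-like and 202 in venous-like cells. Mfsd2a was also 1 of the 10 capillary markers used to name the classes.

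Plvap belongs with genes of fenestrated or immature endothelium, of which 15 were listed and 8 reached 10 CPM in arterial-like or capillary-like cells. Higher in arterial-like than capillary-like cells were Igfbp3 (202 against 4.11 CPM), the Notch ligand Dll4 (124 against 58.0) and the lipid phosphatase Plpp3 (52.0 against 22.8). Lower were the semaphorin receptor Nrp2 (9.70 against 42.0 CPM) and the VEGF receptor Kdr (293 against 600). In venous-like cells only Nrp2 passed, at 142 CPM. The apelin receptor gene Aplnr was at 1.62, 9.02 and 18.2 CPM in arterial-like, capillary-like and venous-like cells.

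Mural cells, the smooth muscle cells and pericytes of the vessel wall, had a different mixture of coat genes. Of 7 genes, 3 were at least 2-fold higher in mural-like than capillary-like cells (17.1% of 9496 genes tested): Prkcdbp 2.91-fold (2.68 to 3.16), Ehd2 2.70-fold (2.41 to 3.002) and Ptrf 2.37-fold (2.22 to 2.52). A further 3 were lower (14.7%): Cav1 stood at 28.3% of the capillary-like level (24.1 to 33.0), Cav2 at 26.9% (23.1 to 31.2) and Sdpr at 5.70% (4.01 to 7.86). Ehd4 was at 146% (122 to 172). These are values of the whole class, and its Acta2-high and Kcnj8-high cells differed in them, as given below. The 10 endothelial markers were at a median of 6.20% of their capillary-like level in the same cells, from 3.38% for Cldn5 to 40.6% for Esam, with Tie1 next at 9.48%. Sdpr thus lay inside the range of the endothelial markers, as did Cav1 and Cav2 if Esam is counted. Mural-like cells were admitted by a limit on the UMIs of these same markers, which can lower the range. The caveolar genes were not part of that limit, so the range cannot show which part of a gene's level was endothelial RNA. The level of Sdpr, Cav1 and Cav2 with endothelial RNA taken away was not measured, since only 3 mural-like cells held no endothelial marker UMI. The counts depended on the limit per cell: over the whole mural clusters, where most droplets held endothelial markers, 0 genes were higher and 0 lower, with Ptrf at 0.20 and Sdpr at -0.25 on the log2 scale. The summed erythroid markers were at 5371 CPM in mural-like and 23.6 in capillary-like cells, the fibroblast markers at 190 and 1.63 CPM.

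**Figure D3:**
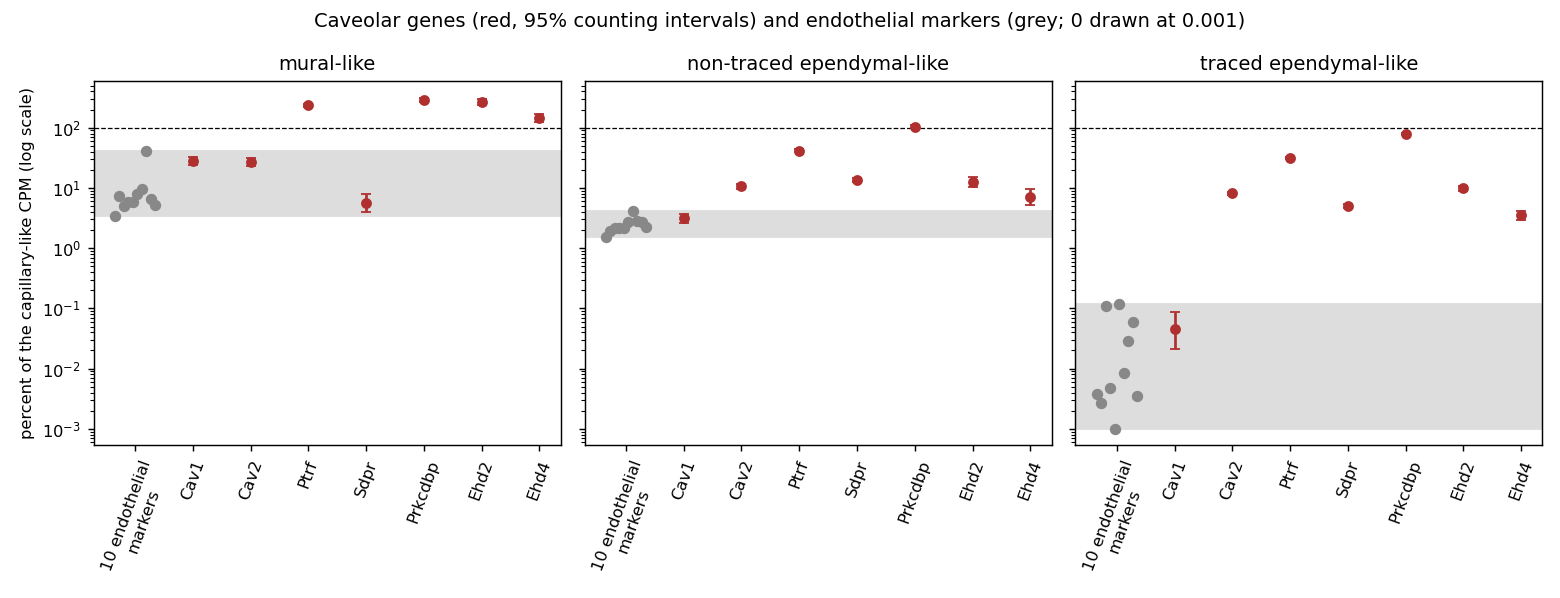
Level of each of 7 caveolar genes (red, exact intervals) as a percent of its capillary-like CPM, on a log axis, in mural-like cells and in the ependymal-like cells of each library. Grey points are the 10 endothelial markers and the grey band their range, with 0 drawn at 0.001. In ependymal-like cells Cav1 falls inside the band and the other 6 genes above it. Mural-like and non-traced ependymal-like cells were admitted by a limit on the UMIs of these markers, which can lower the band.

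Within the mural-like cells the levels followed Acta2, the smooth muscle actin. Sub-clusters were split after their values were seen into those high in Acta2 (114 cells) and those high in the pericyte channel gene Kcnj8 (136 cells). Against 11.6% of 9331 genes tested, 6 of 7 caveolar genes were at least 2-fold higher in the Acta2-high cells, and 0 were lower (14.1%). Prkcdbp was 818, 667 and 368 CPM in the 3 Acta2-high sub-clusters (55, 38 and 21 cells) and 61.6 and 90.6 CPM in the 2 Kcnj8-high ones (96 and 40 cells), without overlap, and summed it was 716 against 71.6 CPM, a ratio of 10.0 (7.24 to 14.2). Ptrf was 1229, 1135 and 969 CPM against 171 and 155 in the same sub-clusters, with sums of 1168 and 165 CPM and a ratio of 7.07 (5.69 to 8.88). Cav1 was 172 against 47.7 CPM (3.60-fold, 2.36 to 5.70), Cav2 174 against 66.0 (2.64-fold, 1.82 to 3.92) and Ehd2 348 against 150 (2.32-fold, 1.81 to 2.998). Ehd4 was 136 against 66.0 CPM (2.06-fold, 1.40 to 3.09), at the limit. Sdpr was alone in not differing by 2-fold, 25.8 against 29.4 CPM (0.878, 0.436 to 1.80). The endothelial marker Cldn5 moved the opposite way, 222 CPM in Acta2-high and 360 in Kcnj8-high cells. Against capillary-like cells, Prkcdbp was at 455.5%, Ptrf at 361% and Ehd2 at 349% in the Acta2-high cells. In the Kcnj8-high cells Prkcdbp was at 45.5% and Ptrf at 51.0%, both below the capillary-like level, and Ehd2 at 151%. One of the Kcnj8-high sub-clusters (96 cells) was led by hemoglobin genes, and the other one carried the stress genes Egr1 and Hspa1b.

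**Figure D4:**
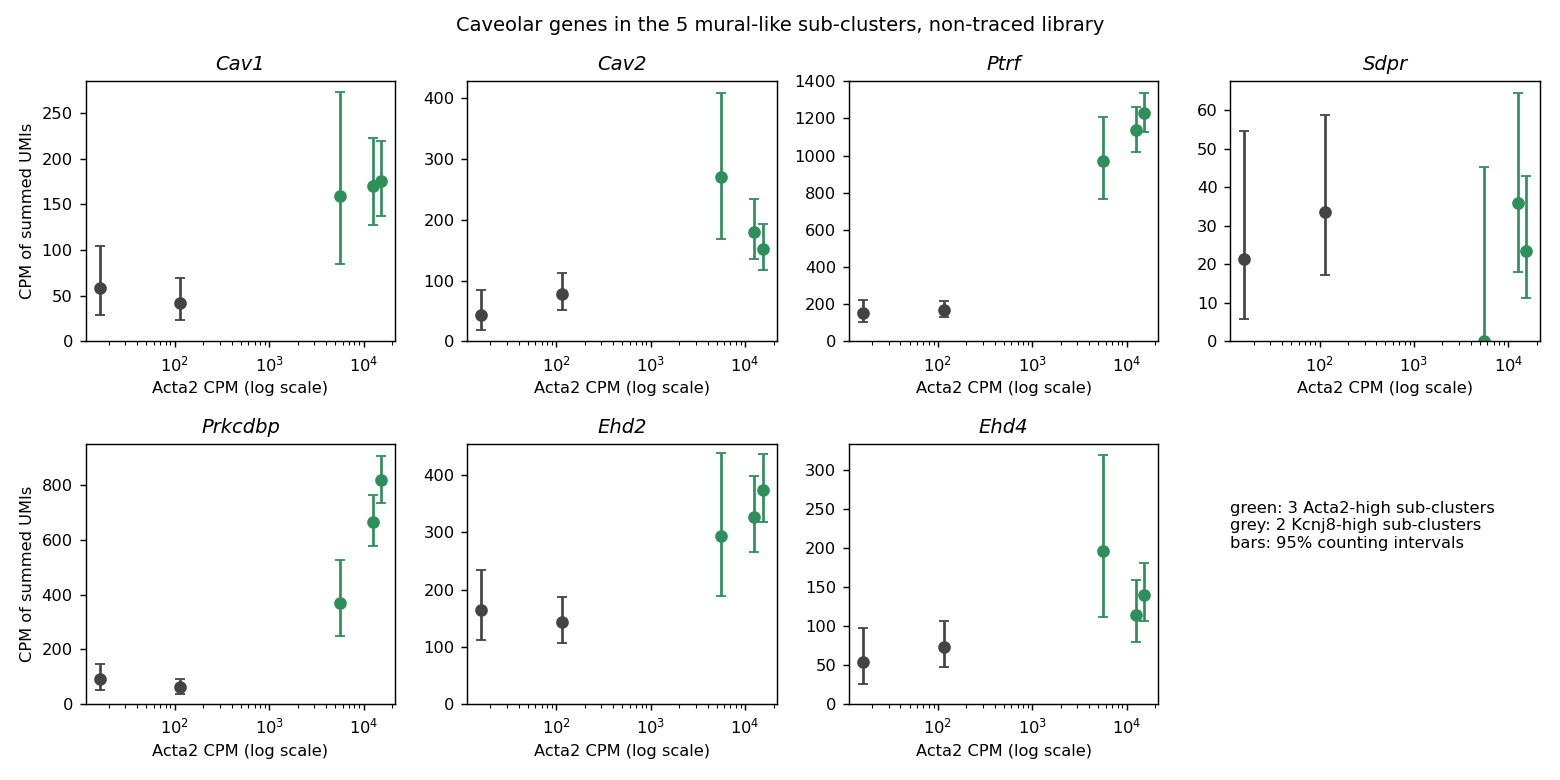
Level of 7 caveolar genes (CPM, linear axes from 0, exact intervals) in the 5 mural-like sub-clusters of the non-traced library against their Acta2 level (CPM, log axis). The 3 Acta2-high sub-clusters (green) stand above the 2 Kcnj8-high ones (grey) for Ptrf and Prkcdbp and not for Sdpr.

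Ependymal cells, the ciliated lining of the central canal, held the cavins and Cav2 with little Cav1. Of 7 genes, 6 were at least 2-fold lower than in capillary-like cells in the non-traced (18.4% of 10431 genes tested) and in the traced library (19.3% of 10466), and 0 were higher (27.9% and 29.5%). Both comparisons used the same capillary-like cells. Prkcdbp was not among the 6, at 103% (97.4 to 109) and 78.5% (75.6 to 81.5) of the capillary-like level. Ptrf was at 41.4% and 31.1%, Sdpr at 13.5% and 5.03%, Ehd2 at 12.5% and 9.89%, Cav2 at 10.7% and 8.16% and Ehd4 at 7.07% and 3.49% in non-traced and traced cells. Cav1 was at 3.13% and 0.0455%. The 10 endothelial markers in the same cells were at a median of 2.20% (1.54 to 4.19) and 0.00668% (0 to 0.117). Cav1 lay inside their range in both libraries and the other 6 genes above it in both. Non-traced cells were admitted to the class by a limit on the UMIs of these same markers, which can lower the range. The caveolar genes were not part of that limit. The non-traced range therefore cannot show which part of a gene's level was endothelial RNA. Summed over the 10 markers, endothelial RNA amounted to 501 CPM of the non-traced class and 3.32 CPM of the traced class, against 24727 CPM of the capillary-like class.

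In ependymal-like cells with no UMI of the 10 endothelial markers (95 non-traced and 4618 traced cells), Ptrf was 127 and 99.9 CPM, Prkcdbp 173 and 124, Cav2 48.1 and 39.7 and Sdpr 48.1 and 24.0. Cav1 was at 8.91 CPM (2.89 to 20.8, 5 UMIs) and 0.204 CPM (0.0931 to 0.386, 9 UMIs).

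The third comparison was between the ependymal-like cells of both libraries, that is, traced against non-traced. Of the 6 genes that reached 10 CPM, 2 were at least 2-fold lower in traced cells, beside 1.73% of 9605 genes tested (3.65% where the minimum is 1 CPM), and 0 were higher (0.739%). Cav1 was at 1.45% (0.649 to 2.85) of its non-traced level and Sdpr at 37.3% (33.7 to 41.3). Prkcdbp, Cav2, Ptrf and Ehd2 lay between 75.1% and 79.0%. Of the 9 endothelial markers that reached 10 CPM, all 9 were lower in traced cells, with a median log2 difference of -4.67, and their part in the Cav1 and Sdpr differences was not tested. In the cells without endothelial marker UMIs the Sdpr difference was -0.98 on the log2 scale, just under 2-fold. Over whole ependymal clusters without the limit, 5 genes were lower.

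Within each library, Sdpr was the gene that differed most between 2 kinds of ependymal-like cell. Sub-clusters with at least 100 CPM of Ucma, a secreted matrix protein gene, a limit set after the values were seen, held 360 of 1181 non-traced (30.5%) and 215 of 4761 traced (4.52%) ependymal-like cells. Sdpr was 135 CPM (121 to 150) in the Ucma-high and 36.1 (31.6 to 41.1) in the other cells of the non-traced library, a ratio of 3.74 (3.16 to 4.44). In the traced library it was 109 (95.4 to 123) and 19.7 CPM (18.4 to 21.0), a ratio of 5.53 (4.78 to 6.39). Among sub-clusters, the 2 Ucma-high ones of the non-traced library had 133 and 140 CPM of Sdpr. Those below the limit had 23.1 to 46.5 CPM, apart from 1 of 49 cells with 118 CPM of Sdpr. This one lay just short of the limit (82.9 CPM of Ucma) and also held 794 CPM of Cldn5. The other non-traced sub-clusters held 69.7 to 92.0 CPM of Cldn5. The part of endothelial RNA in the Sdpr level of the 49 cells was not tested. The single Ucma-high sub-cluster of the traced library had 109 CPM and the other 7 had 9.67 to 45.9 CPM. Sdpr was the only 1 of the genes at 10 CPM or more to be 2-fold higher in either library, beside 2.17% of 9721 and 2.87% of 9685 genes tested, and 0 were lower (2.61% and 2.15%). Cav1, at low counts, was 7.82 CPM in the Ucma-high and 15.8 in the other cells of the non-traced library, a ratio of 0.496 (0.291 to 0.806) that was -0.93 on the log2(CPM + 1) scale. Ehd4, below 10 CPM and therefore not counted, was 8.95 against 2.27 CPM in the traced library, a ratio of 3.94 (2.31 to 6.42), and 6.65 against 4.69 in the non-traced library (1.42, 0.734 to 2.66). Cav2 and Ptrf had close levels in both kinds of cell: Cav2 53.2 and 51.4 CPM in non-traced, 39.8 and 39.6 in traced cells, and Ptrf 125 and 138, then 94.4 and 101 CPM. Prkcdbp was 1.16-fold (1.04 to 1.30) and 1.31-fold (1.18 to 1.46) higher in the Ucma-high cells. Cldn5 was lower in the Ucma-high cells of the non-traced library, 91.9 against 140 CPM, and had 0 and 14 UMIs in the Ucma-high and the other cells of the traced library. Within the Ucma-high cells, Sdpr in traced cells was 0.805 times its non-traced level (0.681 to 0.952), and within the others 0.544 times (0.470 to 0.632).

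**Figure D5:**
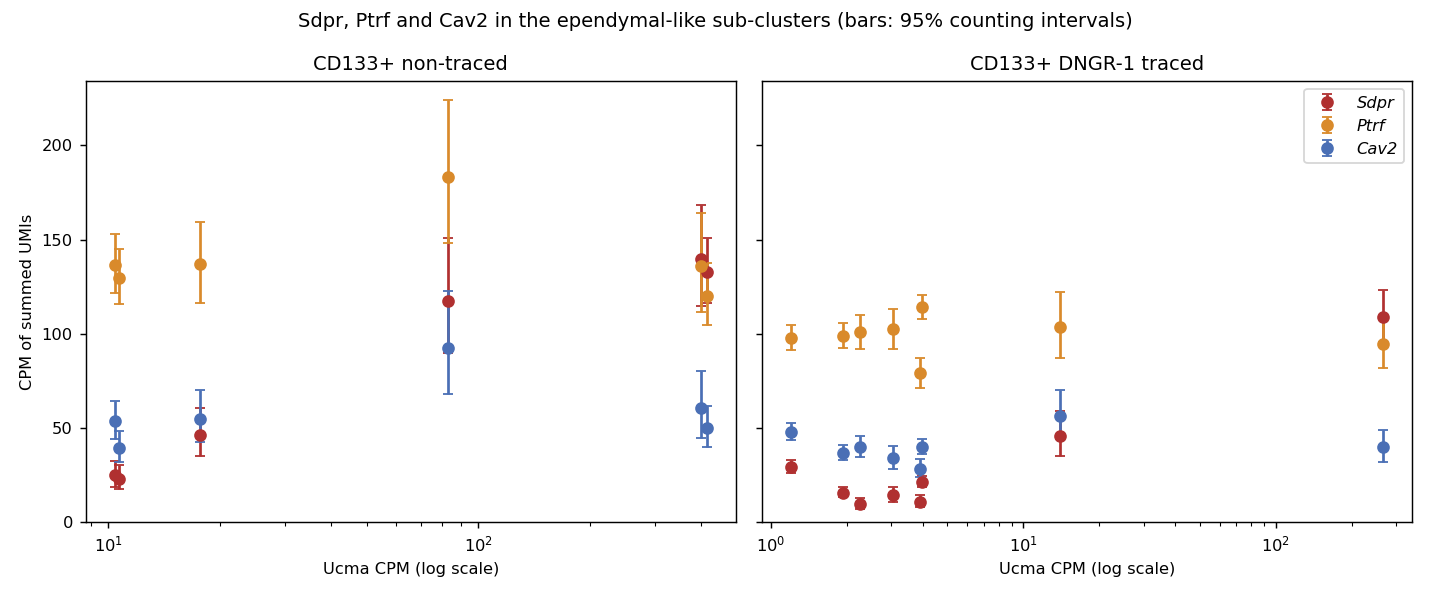
Level of Sdpr, Ptrf and Cav2 (CPM, linear axis from 0, exact intervals) in ependymal-like sub-clusters of at least 40 cells against their Ucma level (CPM, log axis), with a panel for each library. Sdpr is highest at the right of each panel, at 133 and 140 CPM in the non-traced and 109 CPM in the traced Ucma-high sub-clusters.

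Across the 19 clusters of at least 100 cells in the non-traced library, Pearson's r of log2(CPM + 1) between Cav1 and the other caveolar genes was 0.983 for Cav2, 0.966 for Ehd2, 0.955 for Ehd4, 0.941 for Ptrf, 0.891 for Sdpr and 0.371 for Prkcdbp. Among 10120 genes of at least 20 CPM in 1 of these clusters, the patterns most like Cav1 were those of Srgn, Clec2d and Acvrl1 (0.997 each). For Cav2 they were Arpc3, Rhoa and Rsu1, for Ptrf Rac1, Serinc3 and Pitpnb, for Sdpr Plscr3, Cd47 and Pwwp2b, for Ehd2 Mmrn2, Itpr3 and Cyth3, and for Ehd4 Smad7 and Tmod3. The closest to Prkcdbp were Rfk, Dhh and Ip6k3, at 0.876 to 0.860, and the closest to Plvap, whose counts were near 0, were Tnfaip8, Hmox2 and Gga1 (0.717 to 0.682). No mural-like sub-cluster reached 100 cells, the largest holding 96, so the mural-like class is not part of these correlations. Clusters of droplets with markers of more than 1 class were among the 19. These clusters come from 1 library and share its background, and most of them are endothelial, so the values are a description.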

How the data were processed

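Spinal cord cells of 2 sorted fractions were profiled with droplet 3′ libraries. The deposited values were raw counts of UMIs per gene and cell, which the authors made with Cell Ranger 3.0.2 (STAR 2.5.1b, mm10) per the submitters' notes. These also name R 3.6.0 and Seurat 3. The study's filter (at least 50 genes, mitochondrial genes at most 10%) left all cells. Counts of a 3′ kit do not compare levels between genes, so only levels of 1 gene between cell classes were compared.

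Each library was clustered on its own (scanpy 1.11.5, 2000 features without the 8 genes, 20 components, 20 neighbors, resolution 0.8). Clusters were named from marker lists. UMIs were summed per class as CPM, with exact Poisson intervals. Shares of cells were taken after thinning to 1000 UMIs (no cell was shallower), with Clopper-Pearson intervals. Ratios carry exact intervals conditional on the summed counts (scipy 1.17.1). The call was 2-fold on log2(CPM + 1), and a count of 0 allows up to 3 counts. The steps were tested on simulated data. Doublets were kept. Scrublet called 2170 non-traced cells (8.54%, with 20.3% expected) and 0 traced cells (3.86% expected). Why it called none there was not tested, and its calls were left out only in an alternative.

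The genes named were the 8, the 3 genes most like each of them (1 is not reported here), Mfsd2a, listed genes past 2-fold in a segment and class markers. Others, such as Nos3, Ucma, Acta2 and the genes that lead clusters, were chosen after their values were seen. Members, lists and limits were chosen with earlier results of these data known. Alternatives were another integration (Seurat 5.3.0, R 4.3.3), resolutions 0.4 and 1.6, cell filters (at least 1000 genes, at most 5% mitochondrial UMIs), a pseudocount of 5 and a minimum of 1 CPM.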

Additional observations from a re-analysis of the deposited data

How the results depend on the processing

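Of 48 differences of single genes between classes, 22 were at least 2-fold. Over 10 alternatives these gave 214 values, all in the same direction, of which 199 were still at least 2-fold. The arterial-like count of 2 higher genes was 0 with the 8 genes among the clustering features and at resolutions 0.4 and 1.6, and 2 with both libraries integrated. The mural-like counts of 3 higher and 3 lower were 0 and 0 over whole clusters without the limit on endothelial UMIs. The count of 2 genes lower in traced than non-traced ependymal-like cells was 0 in cells with no UMI of the other classes' markers, where Cav1 no longer reached 10 CPM but differed by -3.04 on the log2 scale (-3.60 in all cells), and 5 over whole clusters. The share of capillary-like cells with a UMI was higher without thinning: 86.1% for Cav1, 91.9% for Cav2, 83.3% for Ptrf, 88.5% for Sdpr, 59.6% for Prkcdbp, 45.5% for Ehd2 and 36.0% for Ehd4. The mean of each capillary-like cell's own CPM was 421 for Cav1. Leaving out clusters led by stress or immune genes left no venous-like class, and 3 mural-like cells without endothelial UMIs were too few for a value. No paired analysis was possible because each group was 1 library. Depth limits the Plvap comparisons, with 58 and 8 UMIs in the libraries, and the mural-like values, from 250 cells.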

Other observations

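Droplets that held markers of more than 1 class were kept apart from the classes. The 2258 droplets with mural and endothelial markers had 187 CPM of Prkcdbp and 154 of Ehd2, against 458 and 269 in mural-like cells and 157 and 99.8 in capillary-like cells. In the 719 droplets with ependymal and endothelial markers Prkcdbp was 188 CPM, above the 162 of ependymal-like and the 157 of capillary-like cells, and Ehd2 was 86.8 CPM. Both kinds were deep, with medians of 10748 and 13875 UMIs, against 7218 over the whole non-traced library.

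A dividing sub-cluster of the traced ependymal-like cells, led by Mki67 and Top2a (106 cells, chosen after its values were seen), held 4 of the 8 Plvap UMIs of that library (2.96 CPM, 0.806 to 7.58). It had 45.9 CPM of Sdpr (35.2 to 58.8) against 24.0 over all traced ependymal-like cells, and 104 CPM of Ptrf against 101. Cav1 was at 3 UMIs there (2.22 CPM, 0.458 to 6.49). In the non-traced library the like sub-cluster held 15 cells, too few for a comparison, with 1 Plvap UMI.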
